A study of Rattus norvegicus with 15 samples.

Results

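The genes described here make sterols and fatty acids or switch that synthesis on, and their transcripts were assayed in whole kidneys. The rats were 5 weeks old and belonged to a strain labelled as congenic for chromosome 10 of the Dahl salt-sensitive rat, or to the Dahl salt-sensitive rat itself (Dahl S). The members were chosen by gene symbol in the annotation of 3 oligonucleotide array designs, called A, B and C here. Of 8 listed genes, 7 were found among 10969 named genes, with 27 probe sets, 19 on array A, 3 on array B and 5 on array C. They are Sqle, Fdps, Fdft1, Srebf1, Scd, Scd2 and Fasn, while Hmgcs1, the cytosolic synthase that feeds the sterol pathway, was not analysed here. On arrays B and C, kidneys 4 and 5 came from the congenic strain (n = 2) and kidneys 1 to 3 from Dahl S rats (n = 3). On array A the sample descriptions call all 5 kidneys Dahl S, although numbers 4 and 5 are congenic on the other designs, so their strain was treated as unsettled and the split there is by kidney number alone. No sex, diet or treatment is given, and neither the donor strain nor the extent of the chromosome 10 segment is named in the sources used here. Nothing says that the kidneys came from separate animals, or that a number stands for the same RNA on each design, so the errors and p-values cover only how far these samples scatter, and that scatter may be technical.

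Cells build cholesterol from acetyl-CoA through HMG-CoA, farnesyl diphosphate and squalene. The sterol regulatory element binding proteins, made from Srebf1 and Srebf2, are membrane-bound precursors that are cut free when sterols run low and then switch on these enzymes, and the Srebf1 products act mainly on fatty acid synthesis. In the kidney, SREBP-1 and its lipogenic targets are known for their link to lipid accumulation in tubules and glomeruli.

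Upstream sequence is shown for Srebf1 and Scd2, the members with the smallest p-values on arrays B and C, and for Fdps, an enzyme of the sterol pathway measured here. Each is the 250 bases before an annotated start, 5′ to 3′, from RefSeq's annotation of rat assembly GRCr8, in which 5 of the 8 listed genes were matched. Capitals mark each CCAAT or its reverse complement, the CCAAT box that NF-Y binds beside SREBP in many sterol-regulated promoters.
Srebf1, outer start, chr10:45529165-45529414, minus strand: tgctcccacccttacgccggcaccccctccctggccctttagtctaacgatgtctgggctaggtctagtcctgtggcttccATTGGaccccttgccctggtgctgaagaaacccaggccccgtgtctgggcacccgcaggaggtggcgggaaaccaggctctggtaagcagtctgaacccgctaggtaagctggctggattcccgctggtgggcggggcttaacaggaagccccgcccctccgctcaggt
Srebf1, inner start, chr10:45519011-45519260, minus strand: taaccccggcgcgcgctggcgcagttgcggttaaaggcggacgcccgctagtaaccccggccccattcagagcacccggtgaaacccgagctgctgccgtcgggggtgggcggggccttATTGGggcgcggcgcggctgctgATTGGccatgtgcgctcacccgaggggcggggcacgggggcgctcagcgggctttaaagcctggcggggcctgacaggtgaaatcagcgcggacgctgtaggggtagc
Scd2, chr1:253118127-253118376, plus strand: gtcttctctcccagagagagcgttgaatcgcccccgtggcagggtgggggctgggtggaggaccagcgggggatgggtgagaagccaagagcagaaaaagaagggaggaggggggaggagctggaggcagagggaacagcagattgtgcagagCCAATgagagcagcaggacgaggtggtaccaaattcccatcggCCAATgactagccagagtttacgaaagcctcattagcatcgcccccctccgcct
Fdps, chr2:176804817-176805066, minus strand: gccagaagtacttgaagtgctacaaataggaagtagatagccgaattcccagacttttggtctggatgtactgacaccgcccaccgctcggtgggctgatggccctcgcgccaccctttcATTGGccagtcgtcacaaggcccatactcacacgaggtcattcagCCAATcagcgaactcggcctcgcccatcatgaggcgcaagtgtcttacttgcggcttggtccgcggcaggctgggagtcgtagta
The outer start of Srebf1 holds 1 CCAAT box, 169 bases before the start, and the inner start has 2, at 131 and 108 bases. Scd2 also holds 2, at 97 and 54 bases, and Fdps 2, at 130 and 85 bases. Searched on both strands, CCAAT occurs in 34.0% of 33469 such upstream windows. The GC box GGGCGG, searched likewise, occurs in 30.5% of them, with 2 matches at each Srebf1 start, 1 at Fdps and none at Scd2. The sterol regulatory element, searched as TCACNCCAC, occurs in 0.974% of all windows and in none of those printed. The E-box CACGTG occurs in 5.59% and also in none of those printed. No GC box match overlaps a CCAAT box in these sequences.

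No member differed between the groups past the threshold, an adjusted p of 0.05 in limma with Benjamini-Hochberg adjustment over all tested probe sets of a design. A probe set is a group of short probes for 1 transcript, and its value is a linear signal intensity that is compared between kidneys and never between probe sets. Of the 27 member probe sets, 22 passed the filter on low values (15 on array A, 3 on array B and 4 on array C) and all 7 genes had at least 1 among them. Their lowest adjusted p was 0.9987 on array A, 0.998 on array B and 0.775 on array C. For the whole arrays, the share of tested probe sets past the threshold was 0% on array A, 0.0912% on array B and 0% on array C. At an unadjusted p under 0.05 there was 1 member on each design, which are Scd2 on A, Srebf1 on B and Scd2 on C, against 3.49% of the tested probe sets on A, 3.49% on B and 6.20% on C. The Scd2 probe set on A, U67995_s_at, passed the filter only through kidneys 1 to 3, where it is high, so its difference is a description and supports nothing. These 3 are also the members whose 95% interval for the difference leaves out 0.

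Groups that do not overlap were counted as a description. The members were chosen with earlier results of these data known, so their counts beside the shares over all tested probe sets support nothing. On array A, 5 of the 15 tested member probe sets were higher in both kidneys 4 and 5 than in each of kidneys 1 to 3, where 8.82% of all tested probe sets were, and 1, the same U67995_s_at, was lower in both, against 10.1%. The 5 higher ones belong to Sqle, Fdps and Fdft1 alone and are not independent. On array B, 1 of 3 was higher in both congenic kidneys (7.73% of all) and none was lower (9.44% of all). On array C, 1 of 4 was higher (10.2% of all) and 1 was lower (12.2% of all). The median log2 difference of the tested members was 0.18 on array A, 0.14 on array B and −0.01 on array C, beside −0.02, −0.01 and −0.01 over all probe sets tested on these designs. With 19 of the 27 probe sets on array A, most of the members' values thus bear on a split whose strain is unsettled.

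**Figure D1:**
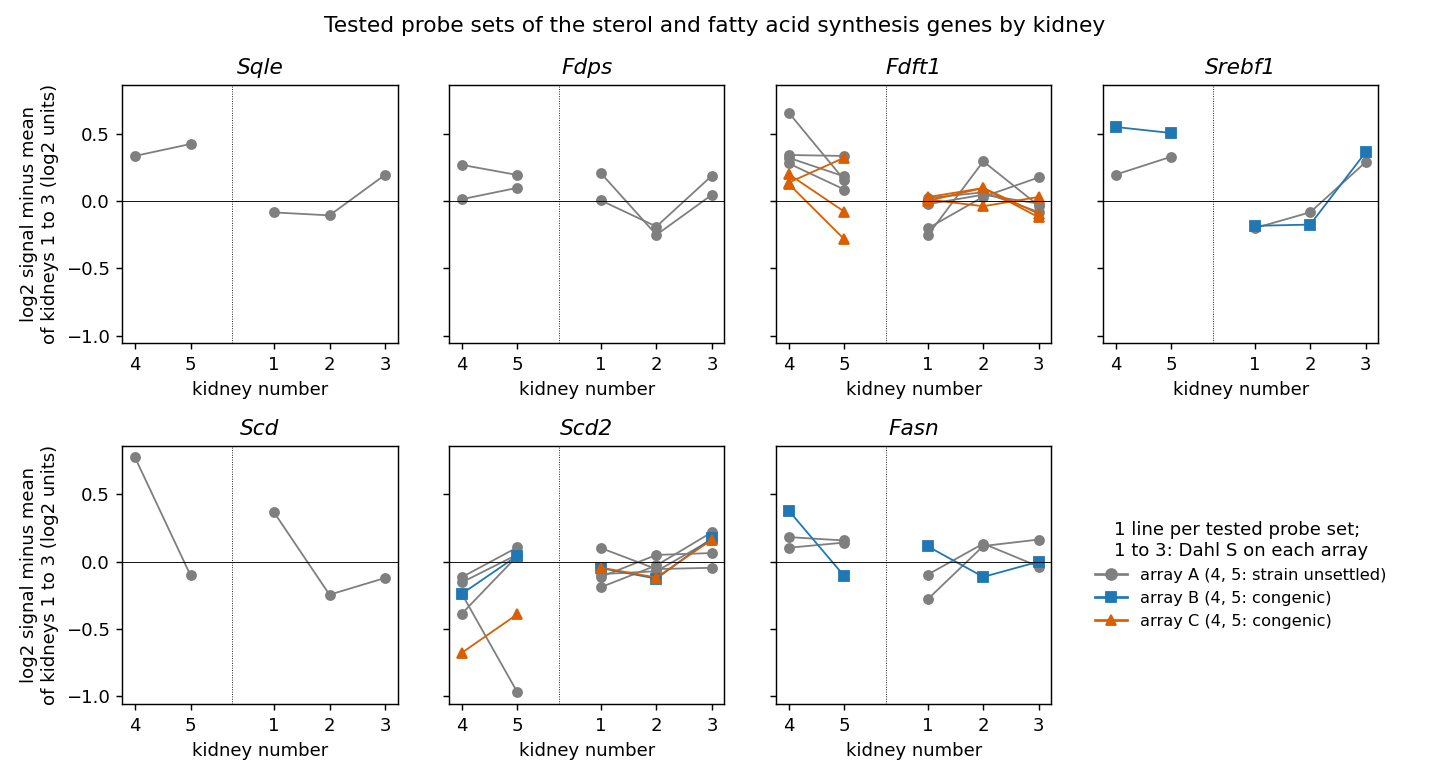
Log2 signal of each tested member probe set minus its mean over kidneys 1 to 3 (log2 units), for kidneys 4 and 5 on the left and kidneys 1 to 3 on the right of each panel; 1 line stands for 1 probe set, with grey circles for array A, blue squares for B and orange triangles for C, and lines only join the values of a probe set. Srebf1 is high in kidneys 3, 4 and 5 on both designs, Fdft1 is highest in kidney 4 for 6 of 7 probe sets, and Scd2 is highest in kidney 3 for 5 of 6.

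Srebf1, which encodes SREBP-1 and lies on chromosome 10, had signals of 2328 and 2256 in the congenic kidneys, against 1399, 1408 and 2045 in the Dahl S kidneys on array B. The groups do not overlap, yet Dahl S kidney 3 lies much nearer to the congenic kidneys than to the other Dahl S kidneys. The means were 2292 ± 50.3 in congenic (SD, n = 2) and 1617 ± 370 in Dahl S kidneys (SD, n = 3), a log2 difference of 0.53 (SE 0.20, 95% interval 0.05 to 1.004, limma adjusted p = 0.998). By p it ranked at 100 of 4385 tested probe sets.

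Array A holds another Srebf1 probe set, L16995_at, with signals of 984 and 1079 in kidneys 4 and 5, against 747, 811 and 1050 in kidneys 1 to 3. Here the groups overlap, because kidney 3 exceeds kidney 4. The log2 difference was 0.26 (SE 0.20, 95% interval −0.20 to 0.73, limma adjusted p = 0.999). On both designs kidneys 1 and 2 had the lowest Srebf1 signals and kidneys 3, 4 and 5 the higher ones, so the Dahl S kidneys differ among themselves about as much as the groups do. The 3 Dahl S values on array B span 1399 to 2045, a wider range than the 2256 to 2328 of the congenic kidneys.

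The sterol enzymes of this set were measured mostly on array A. All 7 tested probe sets of Sqle, Fdps and Fdft1 there had a positive log2 difference, between 0.05 and 0.40 (median 0.25), and none passed the threshold (adjusted p = 0.999 or above). These probe sets are not 7 independent measurements, since they cover 3 genes and several share an accession.

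Sqle, the squalene epoxidase that commits squalene to the sterol ring, had signals of 1361 and 1447 in kidneys 4 and 5, against 1018, 1002 and 1235 in kidneys 1 to 3 on array A. Both kidneys 4 and 5 lie above the other 3 in Sqle, by 1.30-fold between the means of the log values (log2 difference 0.38, SE 0.17, 95% interval −0.03 to 0.78, limma adjusted p = 0.999). The Sqle probe set of array C, rc_AA819300_at, did not pass the filter on low values. Its signals were 337 and 212 in the congenic kidneys and 190, 202 and 290 in the Dahl S kidneys, so that there the groups overlap, with kidney 5 among the low values where it is the highest on array A.

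Fdft1, the squalene synthase that joins farnesyl diphosphate molecules, had 7 tested probe sets. On array A, M95591_at gave 2844 and 2584 in kidneys 4 and 5, against 2240, 2352 and 2246 in kidneys 1 to 3 (log2 difference 0.25, SE 0.16, limma adjusted p = 0.999). Its partner of the same accession, M95591_g_at, gave 1760 and 1539 in kidneys 4 and 5, against 1472, 1517 and 1370 in kidneys 1 to 3. Both show kidney 4 highest and no overlap, although kidney 5 exceeds kidney 2 only slightly in the second. The pair rc_H33426_at and rc_H33426_g_at gave 711 and 708, and 645 and 456, in kidneys 4 and 5. In kidneys 1 to 3 they gave 487, 574 and 634, and 343, 502 and 400, so rc_H33426_g_at overlaps between the groups. The 4 log2 differences of Fdft1 on array A ran between 0.18 and 0.40. That of rc_H33426_g_at (0.40) was 0.15 without kidney 4 and 0.66 without kidney 5, and that of M95591_g_at (0.18) was 0.084 without kidney 4 and 0.28 without kidney 5.

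On array C, where kidneys 4 and 5 are congenic, the 3 Fdft1 probe sets were not all of one sign. Signals of rc_AI176781_at were 1170 and 1331 in congenic kidneys and 1086, 1138 and 978 in Dahl S kidneys, without overlap (log2 difference 0.23, SE 0.15, 95% interval −0.11 to 0.57, limma adjusted p = 0.865). The probe set rc_AI229016_s_at gave 9823 and 8100 in congenic kidneys and 8625, 8329 and 8740 in Dahl S kidneys, and rc_AA859392_s_at gave 1265 and 951 in congenic kidneys and 1159, 1239 and 1085 in Dahl S kidneys. In these last probe sets the congenic kidneys hold both the highest and the lowest value, and the log2 differences were 0.06 and −0.08. Kidney 4 was the highest of the 5 kidneys in 6 of the 7 tested Fdft1 probe sets over both designs. Over all tested probe sets kidney 4 was the highest in 17.6% on array A and in 20.3% on array C.

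Fdps, the farnesyl diphosphate synthase at the branch between sterols and prenylated proteins, was represented by M89945mRNA_at, with 2141 and 2032 in kidneys 4 and 5, against 1783, 1559 and 2026 in kidneys 1 to 3 on array A. Kidney 5 exceeds kidney 3 only slightly, and the log2 difference was 0.23 (SE 0.18, 95% interval −0.19 to 0.65, limma adjusted p = 0.999). Its companion M89945mRNA_g_at overlapped, with 774 and 820 in kidneys 4 and 5 and 885, 644 and 792 in kidneys 1 to 3 (log2 difference 0.05). Kidney 2 had the lowest Fdps signal in both. A further Fdps probe set, rc_AI180442_at, with signals of 178 and 81.4 in kidneys 4 and 5 and 146 to 149 in kidneys 1 to 3, did not pass the filter.

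The desaturases Scd and Scd2, which place a double bond in stearate and palmitate, gave the member with the smallest p of all, and it was lower in the congenic strain. Scd2 on array C had signals of 2829 and 3451 in the congenic kidneys, against 4384, 4167 and 5063 in the Dahl S kidneys. Every congenic value lies below every Dahl S value, with kidney 4 lowest and kidney 3 highest. The means were 3140 ± 439 in congenic (SD, n = 2) and 4538 ± 468 in Dahl S kidneys (SD, n = 3), a log2 difference of −0.53 (SE 0.16, 95% interval −0.91 to −0.16, limma adjusted p = 0.775). It ranked at 56 of 4420 tested probe sets by p.

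The Scd2 probe set of array B showed a smaller difference in the same strains. Signals of rc_AI011483_at were 2300 and 2800 in the congenic kidneys and 2626, 2487 and 3064 in the Dahl S kidneys. The groups overlap, as congenic kidney 5 exceeds Dahl S kidneys 1 and 2 (log2 difference −0.10, SE 0.16, 95% interval −0.48 to 0.29, limma adjusted p = 0.998). Whether the differences on arrays B and C are unequal was not tested.

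On array A the 4 tested Scd2 probe sets had log2 differences between −0.61 and −0.0047. The largest was that of U67995_s_at, with 320 and 192 in kidneys 4 and 5 and 349, 391 and 394 in kidneys 1 to 3 (SE 0.24, 95% interval −1.16 to −0.05, limma adjusted p = 0.999). Its mean of 329 over the 5 kidneys lies just above the filter of 319.5, with 256 in kidneys 4 and 5 and 378 in kidneys 1 to 3, and it fell under the filter when kidney 2 or kidney 3 was left out. Leaving out kidney 5 gave a log2 difference of −0.24 and leaving out kidney 4 gave −0.97. The others overlap. For rc_AA875269_at the signals were 1480 and 1992 in kidneys 4 and 5 and 1814, 1840 and 2167 in kidneys 1 to 3. For AF036761_at they were 692 and 798 in kidneys 4 and 5 and 674, 754 and 895 in kidneys 1 to 3, and for M15114_g_at 1257 and 1466 in kidneys 4 and 5 and 1461, 1311 and 1319 in kidneys 1 to 3. The log2 differences of AF036761_at (−0.051) and M15114_g_at (−0.0047) turn positive, to 0.018 and 0.064, when each array is scaled to the same median.

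The Scd2 probe sets did not share 1 order of the kidneys. Kidney 3 was the highest in 5 of the 6 tested ones and kidney 4 the lowest in 4 of 6, among them those of arrays B and C, while kidney 5 was the highest in M15114_g_at and the lowest in U67995_s_at. Over all tested probe sets kidney 3 was the highest in 26.9% on array A, 19.5% on B and 24.8% on C, and kidney 4 was the lowest in 28.5%, 23.2% and 21.6% on the same designs. Below the filter, S75730_at gave 284 and 341 in kidneys 4 and 5 and 224 to 280 in kidneys 1 to 3, higher in both kidneys 4 and 5. A last one, M15114_at, lay far below the floor in all 5 kidneys (at most 13.3).

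Scd, the other desaturase gene of the set, on chromosome 1 like Scd2, had 1 tested probe set, J02585_at on array A. Its signals were 511 and 278 in kidneys 4 and 5 and 386, 252 and 275 in kidneys 1 to 3, with kidney 4 far above the rest and kidney 5 within the range of kidneys 1 to 3 (log2 difference 0.34, SE 0.30, 95% interval −0.38 to 1.05, limma adjusted p = 0.999). It passed the filter of 319.5 only through kidneys 4 and 5, with a mean of 395 there and 304 in kidneys 1 to 3, and without kidney 4 it was not tested. The other Scd probe set, rc_AI175764_s_at, stayed at or below 27.3, under the floor of 85.1. The near-identical Scd genes can share probes, and 1 probe set annotated to Scd, Scd2, Scd3 and Scd4 together was left out.

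Fasn, the multifunctional synthase that makes palmitate, lies on chromosome 10 like Srebf1. On array B its signals were 3048 and 2175 in the congenic kidneys and 2536, 2167 and 2344 in the Dahl S kidneys. Congenic kidney 4 was the highest of all 5, and congenic kidney 5 lay among the Dahl S values (log2 difference 0.14, SE 0.18, 95% interval −0.30 to 0.57, limma adjusted p = 0.998). On array A, M76767_s_at gave 1231 and 1264 in kidneys 4 and 5 and 1072, 1257 and 1117 in kidneys 1 to 3. The other, X13527cds_s_at, gave 1454 and 1429 in kidneys 4 and 5 and 1055, 1389 and 1436 in kidneys 1 to 3. Both overlap between the groups, with kidney 1 lowest, and their log2 differences were 0.12 and 0.17 (limma adjusted p = 0.9999 for each). Without kidney 1 they were 0.074 and 0.029, and without kidney 2 that of M76767_s_at was 0.19.

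**Figure D2:**
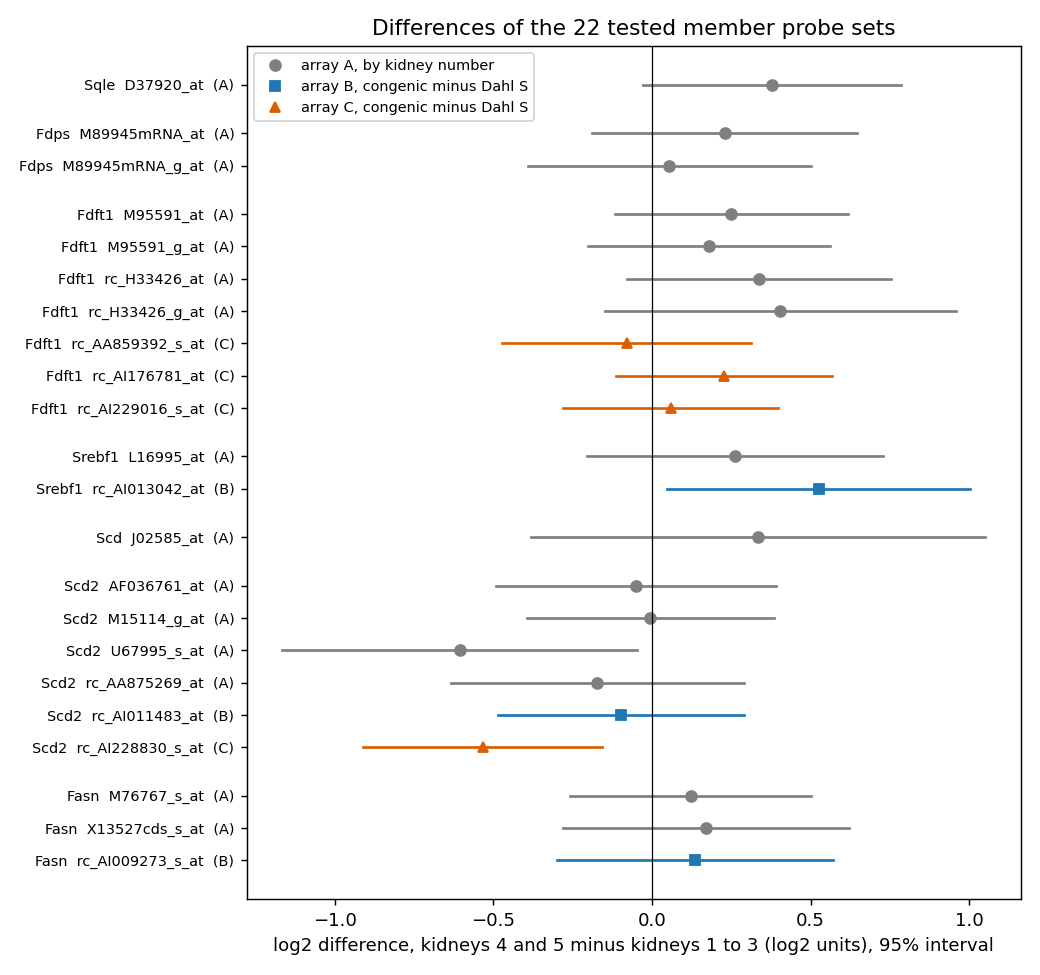
Log2 difference, kidneys 4 and 5 minus kidneys 1 to 3 (log2 units), of the 22 tested member probe sets with its 95% interval from limma; grey circles are array A (split by kidney number), blue squares array B and orange triangles array C (congenic minus Dahl S). The interval leaves out 0 for 3 of them, Srebf1 on B (0.05 to 1.004), Scd2 on C (−0.91 to −0.16) and Scd2 U67995_s_at on A (−1.16 to −0.05), before adjustment for the number of probe sets.

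Of the other enzymes of cholesterol synthesis, none passed the threshold in either direction. On array A, 15 probe sets of 8 genes other than the members were tested, 8 with a positive and 7 with a negative log2 difference (median 0.03). Ebp, the sterol isomerase, had 453 and 753 in kidneys 4 and 5 and 785, 1000 and 934 in kidneys 1 to 3, lower without overlap (log2 difference −0.63, limma adjusted p = 0.999). Acat2, which makes acetoacetyl-CoA, had 723 and 807 in kidneys 4 and 5 and 550, 586 and 661 in kidneys 1 to 3, but −0.07 in the log2 difference of its other probe set. Msmo1, the C4 sterol methyl oxidase, had 977 and 671 in kidneys 4 and 5 and 638, 698 and 540 in kidneys 1 to 3.

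Between the strains, array B tested 3 probe sets of cholesterol enzymes, none of them a member, all with positive differences (median 0.06). Array C tested 7, the 3 of Fdft1 included, 5 positive and 2 negative (median 0.09). On array C, Pmvk, the phosphomevalonate kinase, had 1125 and 1396 in congenic kidneys and 999, 862 and 1130 in Dahl S kidneys. Lss, the lanosterol synthase that closes the sterol rings, had 1332 and 1679 in congenic kidneys and 1278, 1469 and 1006 in Dahl S kidneys. Both overlap between the strains (log2 differences 0.34 and 0.27, limma adjusted p = 0.829 and 0.865).

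Regulators of sterol balance showed no call either. With Srebf1 included, 4 of 5 tested probe sets of the SREBP list on array B had a positive log2 difference (median 0.19) and on array C 3 of 6 (median 0.04). On array A it was 4 of 9 (median −0.08), and the 5 negative ones were the 3 of Lipa and the 2 of Scarb1. Insig1, which holds the SREBP precursor in the endoplasmic reticulum and is itself an SREBP target, had positive differences in both tested probe sets of each of arrays A and B, between 0.16 and 0.40. Only L13619_g_at on array A did not overlap between the groups. The largest difference (0.40, SE 0.46) was that of rc_AI008462_at on array B. It read 1058 and 992 in congenic kidneys and 490.5, 609 and 1564 in Dahl S kidneys. For rc_AI029795_s_at on array B the signals were 2075 and 2474 in congenic kidneys and 1884, 1828 and 2257 in Dahl S kidneys, with overlap. Srebf2, the sister gene of Srebf1, had 703 and 751 in congenic kidneys and 762, 808 and 794 in Dahl S kidneys on array B, a log2 difference of −0.12 (limma adjusted p = 0.998). On array C its signals were 3789 and 4290 in congenic kidneys and 4213, 3996 and 3221 in Dahl S kidneys, with overlap and a log2 difference of 0.09.

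Genes of the liver X receptor pathway, whose receptors bind oxysterols and drive Srebf1 and cholesterol efflux, were few. On array C, Mylip, the ubiquitin ligase that targets the LDL receptor, had 1572 and 1096 in congenic kidneys, against 927, 822 and 1039 in Dahl S kidneys (log2 difference 0.50, SE 0.20, limma adjusted p = 0.775). The values do not overlap, and kidney 4 stands above the others. In all, 2 of 3 tested probe sets of this list were positive on array C (median 0.29) and 3 of 5 on array A (median 0.08), where Apoe, Nr1h3 and Rxrb overlapped between the groups, and none was tested on array B.

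The list of fatty acid synthesis, elongation and desaturation held 18 tested probe sets of 9 genes other than the members on array A, 8 positive and 10 negative (median −0.04). Those with the smallest p were Me1, the malic enzyme that supplies NADPH, Acsl1, which activates fatty acids, and Slc25a1, the mitochondrial citrate carrier. Me1 had 1841 and 1549 in kidneys 4 and 5 and 1222, 1232 and 1137 in kidneys 1 to 3 (log2 difference 0.50, SE 0.16, limma adjusted p = 0.999), and its 4 tested probe sets were all positive, between 0.31 and 0.53. Acsl1 had 1647 and 1423 in kidneys 4 and 5 and 993, 1213 and 1132 in kidneys 1 to 3, while its other 2 tested probe sets were negative. Of these, rc_AA893242_at passed the filter of 319.5 only through kidneys 1 to 3. Its mean was 344 there and 298 in kidneys 4 and 5, so its sign supports nothing. Slc25a1 had 5408 and 5079 in kidneys 4 and 5 and 4575, 3993 and 3199 in kidneys 1 to 3, and 0.02 in the log2 difference of its tested probe set on array B. Another Slc25a1 probe set of array B, rc_AA996852_f_at, did not pass the filter. It read 220 and 325 in congenic kidneys and 418, 903 and 544 in Dahl S kidneys, lower without overlap.

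On arrays B and C the same list gave small differences outside Scd2. Array B tested 8 probe sets, Fasn and Scd2 included, 5 positive and 3 negative (median 0.02). Acss2, the acetyl-CoA synthetase, had 20657 and 17828 in congenic kidneys and 16836, 16640 and 18720 in Dahl S kidneys. Acaca, the acetyl-CoA carboxylase of chromosome 10, had 1184 and 1112 in congenic kidneys and 1262, 1102 and 1282 in Dahl S kidneys. Both overlap between the strains. Array C tested 2, Scd2 and the elongase Elovl6, which had 699 and 578 in congenic kidneys and 653, 856 and 676 in Dahl S kidneys.

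Triglyceride and phospholipid synthesis was represented by 6, 4 and 3 tested probe sets on arrays A, B and C, with medians of −0.01, 0.17 and 0.12 and no call. Dgat2, which adds the last acyl chain of triglycerides, had 4481 and 3830 in congenic kidneys, against 3449, 2989 and 3525 in Dahl S kidneys on array B, without overlap (log2 difference 0.32, SE 0.15, limma adjusted p = 0.998). Its other probe set differed by 0.49. Pcyt2, an enzyme of phosphatidylethanolamine synthesis on chromosome 10, had 1558 and 1448 in kidneys 4 and 5 and 1213, 1007 and 1355 in kidneys 1 to 3 on array A. Its other probe set, AF080568_g_at, overlapped, with 1914 and 1451 in kidneys 4 and 5 and 1984, 1184 and 1127 in kidneys 1 to 3. These were the 2 positive ones of the 6 on array A, and 4 were negative. Gpam U36773_at had the largest difference (−0.68, SE 0.57), with 692 and 156 in kidneys 4 and 5 and 428, 683 and 496 in kidneys 1 to 3, with overlap.

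**Figure D3:**
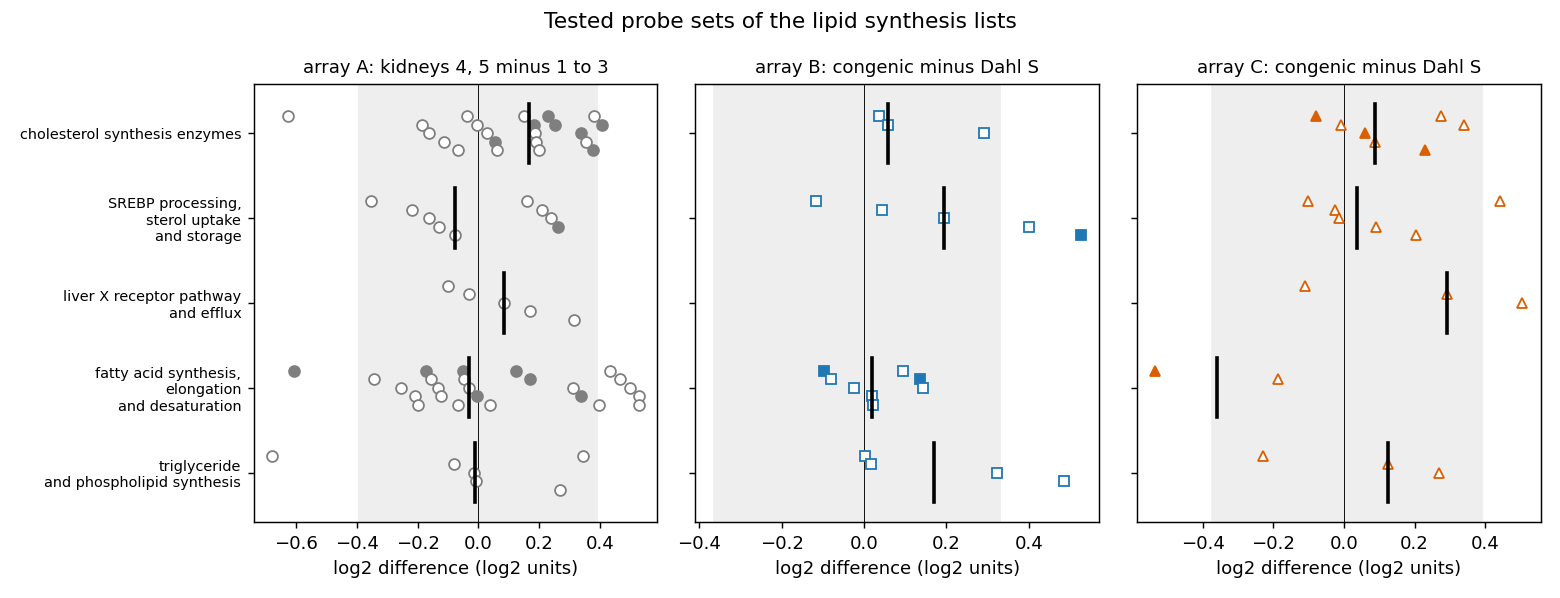
Log2 difference, kidneys 4 and 5 minus kidneys 1 to 3 (log2 units, by kidney number on array A, congenic minus Dahl S on B and C), of each tested probe set in 5 lipid synthesis lists, members filled and other genes open, with the list median as a black bar and the range between the 5th and 95th percentile of all tested probe sets shaded. List medians lie between −0.08 and 0.29 except for the 2 probe sets of fatty acid synthesis on array C (median −0.36), and none of these probe sets passed the threshold.

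Srebf1 and Fasn are the members on chromosome 10, for which the strain is congenic, and whether they lie in the exchanged segment is not given in the sources used here. Of the pathway genes on that chromosome, 9 probe sets were tested on array A, 5 positive and 4 negative, and 3 on array B, 2 positive and 1 negative. These are Srebf1, Fasn, Acly, Acaca, Pcyt2 and Pemt. Acly, the citrate lyase that supplies acetyl-CoA, was negative in its 3 tested probe sets on array A (log2 differences −0.34 to −0.03), and J05210_at ranged over the 5 kidneys between 502 and 1210.

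The tested probe sets nearest to a member over the 5 kidneys were found by the root mean square difference of centred log2 values. This distance does not require the same order of the kidneys, and its median over all tested probe sets is 0.45 on A, 0.37 on B and 0.33 on C. For Srebf1 on array B the nearest were Ttc27 (0.09), Synj2bp (0.10) and Wwc3 (0.11). For Scd2 on array C they were Actr2 (0.06), Nufip2 (0.06) and Atf5 (0.07). For Scd on array A they were Cyp4f1 (0.12), Ptgr1 (0.13) and Agrn (0.14). Actr2, for instance, had 1917 and 2369 in congenic kidneys and 2667, 2732 and 3326 in Dahl S kidneys. With 5 kidneys this is a description of these arrays.

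Fat and adrenal tissue adjoin the kidney and also express lipid synthesis genes, so markers of both were set beside the members. Of 12 adipocyte markers 8 were on array A. Plin1, which coats fat droplets, lay below the floor in all 5 kidneys, and Cfd and Fabp4 did not pass the filter. The signal summed over the list, which its strongest probe sets dominate and which is compared only between kidneys, was 27854 and 14487 in kidneys 4 and 5 and 13704 to 16502 in kidneys 1 to 3. Of its 6 tested probe sets, 4 had a positive log2 difference (median of the 6 0.71), and 2, both of Lpl, were higher without overlap. Over all tested probe sets of array A, 46.5% were positive and 8.82% higher without overlap. Below the filter, Fabp4 read 193 and 114 in kidneys 4 and 5 and 199 to 271 in kidneys 1 to 3. Lep D45862_g_at read 194 and 226 against 252 to 305 in the same kidneys, and Lipe X51415cds_s_at read 175 and 205 against 67.6 to 125. Pck1, also the gluconeogenic enzyme of the proximal tubule, read 14299 and 5010 in kidneys 4 and 5 and 4802 to 5358 in kidneys 1 to 3. Lpl, a lipase, had 3 of the positive probe sets. L03294_at read 1872 and 1357 in kidneys 4 and 5 and 783 to 1190 in kidneys 1 to 3. L03294_g_at read 2524 and 915 in kidneys 4 and 5 and 651 to 873 in kidneys 1 to 3, and only rc_AI237731_s_at overlapped, with 2397 and 791 in kidneys 4 and 5 and 781 to 866 in kidneys 1 to 3. The negative ones were Lep (−0.27) and Lipe (−0.13).

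On array C, Pck1 was 41284 and 18562 in congenic kidneys and 22091 to 23615 in Dahl S kidneys, again highest in kidney 4, and the adipocyte hormone Adipoq had 505 and 570 in congenic kidneys and 401 to 645 in Dahl S kidneys. Among tested probe sets, number 4 was the highest in 6 of 7 of Fdft1 and the lowest in 4 of 6 of Scd2. It was also the highest in the 1 of Scd, which passed the filter only through kidneys 4 and 5. Over all tested probe sets it was the highest in 17.6% on array A and 20.3% on C. It was the lowest in 28.5% on A, 23.2% on B and 21.6% on C. Nothing says that number 4 is the same RNA on each design, and a link between these signals was not tested. Collecting duct markers had a positive difference in 9 of 10 tested probe sets of 6 genes on array A, 5 of them higher without overlap. Over all tested probe sets there, 46.5% were positive and 8.82% higher without overlap. Probe sets of the same gene are not independent, and Avpr2 X83264exon_at passed the filter of 319.5 only through kidneys 4 and 5. Its mean was 443 there and 299 in kidneys 1 to 3, so its sign supports nothing. The summed signal of the collecting duct list was 29467 and 25489 in kidneys 4 and 5 and 21839 to 23738 in kidneys 1 to 3. Leukocyte markers on array A were positive in 2 of 7, with 21713 and 28659 in kidneys 4 and 5 and 25324 to 34583 in kidneys 1 to 3. Podxl, the glomerular podocyte marker, read 5106 and 3188 in congenic kidneys and 2469 to 3010 in Dahl S kidneys on array B, and 1887 and 1246 in congenic kidneys and 777 to 1327 in Dahl S kidneys on array C. The glomerular marker Synpo overlapped on array A (log2 difference −0.04), and the Wt1 probe sets did not pass the filter, with 364 and 186 in congenic kidneys and 222 to 237 in Dahl S kidneys on array B. The part of these signals in the members' values was not tested. Of the 9 adrenal markers 6 were on array A. Star and Cyp17a1 lay below the floor in all 5 kidneys, and Cyp11b2 in 4. Cyp11a1 read 100 and 359 in kidneys 4 and 5 and 108 to 256 in kidneys 1 to 3 and did not pass the filter. Cyp21a1 and Fdx1 each had a tested probe set, with log2 differences of 0.21 and 0.02 and overlap between the groups, and the summed signal of the list was 2500 and 2713 in kidneys 4 and 5 and 2372 to 2594 in kidneys 1 to 3. All 7 proximal tubule markers of array A had probe sets past the filter, with a summed signal of 187831 and 148317 in kidneys 4 and 5 and 171799 to 203112 in kidneys 1 to 3. In whole kidney RNA, fewer cells of a type and less RNA per cell cannot be told apart.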

How the data were processed

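Kidney RNA was profiled on 15 arrays, 5 of each of 3 designs. The deposited table gives each probe set an intensity on a linear scale that the authors had already put on a common level, since its trimmed mean (2% off each end) was 1001 on every array. Whether background was subtracted is not known. Their software is not given in the sources used here. That scale was kept. Within each design, low values were set to the 25th percentile (85.1, 140.1 and 153.6 on A, B and C), and log2 was taken. Probe sets with a mean over the 5 arrays at or above the median of all values (319.5, 485.8 and 510.3) were tested, without 59 controls, which left 4411, 4385 and 4420. Symbols came from the platform annotation, updated through gene identifiers to GRCr8, and a probe set with more than 1 symbol stayed unnamed. Differences were tested with limma 3.58.1 (linear fit and moderated variance, under R 4.3.3), with Benjamini-Hochberg adjustment over all tested probe sets of a design. The procedure was tested on simulated data. The number of arrays limits the precision. The alternatives tried were scaling to a common median, quantile normalization, the 10th percentile as the floor, no filter, an intensity trend with robust variance, and leaving out each array. The members and the gene lists were chosen with earlier results of these data known. All member probe sets were named, and of the other list genes up to 3 with the smallest p per list and design. Ranks, likeness and overlap counts are descriptions without a test. The additional probe sets of a named gene, Acly, Lipa, Adipoq, Pck1, Lpl and the marker genes were singled out after their values were seen.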

Additional observations from a re-analysis of the deposited data

How the results depend on the processing

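No member probe set passed the threshold under any alternative tried. Of 110 log2 differences under the alternatives that keep all arrays, 108 kept their sign, and the exceptions were Scd2 AF036761_at (0.018) and Scd2 M15114_g_at (0.064) on array A with median scaling. Of 107 differences with 1 array left out, 97 kept their sign. Those with a reversal ranged, over the arrays left out, on array A from −0.15 to 0.059 for Scd2 AF036761_at, from −0.12 to 0.11 for Scd2 M15114_g_at, from −0.071 to 0.16 for Fdps M89945mRNA_g_at and from −0.39 to 0.043 for Scd2 rc_AA875269_at. On array B they ranged from −0.11 to 0.38 for Fasn and from −0.24 to 0.044 for Scd2, and on array C from −0.29 to 0.13 for Fdft1 rc_AA859392_s_at and from −0.080 to 0.20 for Fdft1 rc_AI229016_s_at. Srebf1 on array B stayed between 0.43 and 0.71 and Scd2 on array C between −0.68 and −0.39. Without a reversal but by over 1.5 times, Srebf1 on array A (0.26) moved to 0.16 without kidney 1 and 0.41 without kidney 3. Fdps M89945mRNA_at (0.23) moved to 0.13 without kidney 2, Fdft1 rc_AI176781_at (0.23) to 0.14 without kidney 5, and Scd (0.34) to 0.52 without kidney 1, 0.21 without kidney 2 and 0.77 without kidney 5. The lowest adjusted p of a member with an array left out was 0.341.

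The number of probe sets past the threshold on the whole arrays moved more. On array A it was 0, and 2 without a filter on low values. On array B it was 4, and 1 with quantile normalization, with median scaling and with a floor at the 10th percentile. On array C it was 0, 2 without a filter and 1 with an intensity trend. With 1 array left out it ranged from 0 to 25 on A, from 0 to 31 on B and from 0 to 35 on C, each highest without kidney 5, which leaves kidney 4 alone and assumed to vary like kidneys 1 to 3. The cause was not tested. No paired analysis was possible because kidneys 4 and 5 share no number with kidneys 1 to 3.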
